A study of Mus musculus with 4 samples.

Results

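The genes described here are the 9 that form the ATF4-CHOP stress transcription circuit: the bZIP factor genes Atf4, Ddit3 (which encodes CHOP), Atf5, Cebpb and Cebpg, and the stress-induced genes Trib3, Nupr1, Chac1 and Niban1. They were taken by name, as the probe sets whose only annotated gene symbol was one of the 9, out of 22180 genes with such a probe set. Each of the 9 had 1 probe set, so no choice between probe sets arose. All 9 passed a filter on low values, a mean of at least 6.59 on the log2 scale, as did 13308 of the 22180 genes. All 9 also lay above that level on each of the 3 control arrays, so none passed through GSK-J4 alone.

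Expression was measured in embryoid bodies, the aggregates in which embryonic stem cells start to differentiate. The R1 line of mouse embryonic stem cells was used, depleted of feeder cells and kept for 18 h without the cytokine LIF. The groups were EB medium alone, DMSO, 1.88 µM GSK-J5 and 1.88 µM GSK-J4, with 1 array each, so no group has replicates, no difference below has an interval or a test, and differences are described by rules of size. GSK-J4 is the ethyl ester, able to enter cells, of an inhibitor of the KDM6 histone demethylases, and GSK-J5 is its pyridine regioisomer with little activity on these enzymes. The study asked whether KDM6 inhibition elicits a DNA damage response as the cells differentiate. No genotype differed between the groups, and R1 is a single line.

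The circuit is the transcriptional output of the integrated stress response. Kinases that sense amino acid shortage, unfolded protein, viral RNA or heme shortage phosphorylate the initiation factor eIF2, which lowers translation in general while ATF4 protein is made in larger amounts from existing mRNA. ATF4 binds DNA as a dimer with C/EBP proteins and activates genes of amino acid supply, its own partners, and CHOP, which in prolonged stress favours cell death. The arrays measured transcripts, so neither ATF4 protein nor eIF2 phosphorylation was observed.

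Transcripts of all 9 genes were higher with GSK-J4 than on any of the 3 control arrays, by 1.47-fold for Atf4 to 7.31-fold for Niban1 over the nearest control. By the rule of size used here, a level 1.5-fold or more (a log2 difference of 0.585) over the highest control, 8 of the 9 were higher and 0 lower, against 2.21% of the 13308 genes higher and 0.842% lower. Being above all 3 controls by any amount was common, at 38.0% of genes, and held for all 9. At 2-fold the count was 5 of 9, against 0.571% of genes. Medium, DMSO and GSK-J5 were each also put in the place of GSK-J4 and compared with the other 3 arrays, GSK-J4 among them. By the 1.5-fold rule 0 of the 9 were then lower, beside at most 0.00751% of genes. None of the 9 could be higher, because GSK-J4 was the highest array for all of them. The share of all genes higher was at most 0.0150%, and having GSK-J4 among the compared arrays can only lower it.

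**Figure D1:**
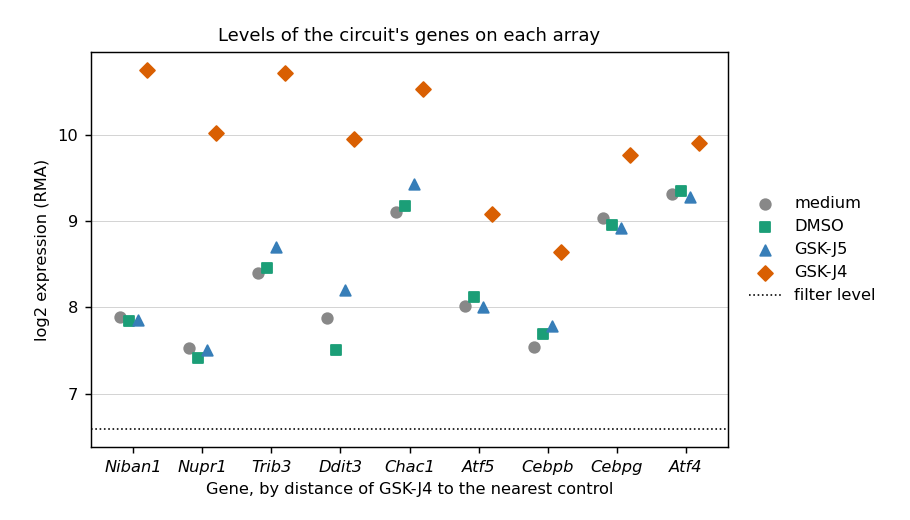
Log2 expression (RMA) of the 9 genes on each of the 4 arrays, 1 point per array, ordered by the distance of GSK-J4 to the nearest control, with the filter level dotted. GSK-J4 lies above the 3 controls for every gene, from 0.56 above for Atf4 to 2.87 above for Niban1, and the control arrays of Ddit3 are spread over 0.70.

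The 5 bZIP factors included the circuit's smallest differences. Atf4, the factor whose translation starts the response, read 9.32 in medium, 9.35 in DMSO, 9.28 in GSK-J5 and 9.91 in GSK-J4. GSK-J4 stood clear of controls that lay within 0.07 of each other, but its margin, the log2 distance to the nearest control, was 0.56 and fell just short of the rule. Without the DMSO array that margin was 0.59, which passes. Ddit3 encodes CHOP, a C/EBP relative that forms dimers with other bZIP proteins, and read 7.88 in medium, 7.50 in DMSO, 8.20 in GSK-J5 and 9.96 in GSK-J4. Its margin of 1.76 ranked 10 among the 13308 genes, while its control arrays were themselves 0.70 apart, a wider range than 99.9% of genes had. The GSK-J4 array lay above all of them, at distances of 1.76 to 2.46 from them.

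Atf5, a relative of Atf4 whose translation is likewise raised by stress, read 8.02 in medium, 8.12 in DMSO, 8.01 in GSK-J5 and 9.09 in GSK-J4, a margin of 0.97. Cebpb, a C/EBP factor of differentiation and inflammation, read 7.54 in medium, 7.69 in DMSO, 7.79 in GSK-J5 and 8.65 in GSK-J4, a margin of 0.86. Cebpg, a short C/EBP protein that pairs with ATF4, read 9.04 in medium, 8.96 in DMSO, 8.92 in GSK-J5 and 9.77 in GSK-J4, a margin of 0.73. For these 3 genes GSK-J4 was the only high array, and the controls spanned 0.11, 0.25 and 0.12. Their margins ranked 81, 119 and 167 among the 13308 genes, and that of Atf4 ranked 323.

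The 4 genes downstream of the factors included the circuit's 3 largest differences. Niban1, a stress-induced gene linked to the control of translation, read 7.89 in medium, 7.84 in DMSO, 7.85 in GSK-J5 and 10.76 in GSK-J4. Its controls lay within 0.05, and its margin of 2.87 ranked 2 of all genes. Nupr1, a small stress-induced chromatin-associated regulator, read 7.53 in medium, 7.41 in DMSO, 7.51 in GSK-J5 and 10.03 in GSK-J4, a margin of 2.50 at rank 3. In both, a single array was high and the 3 controls were nearly level. Trib3, a pseudokinase that binds ATF4 and CHOP and dampens their activity, read 8.40 in medium, 8.46 in DMSO, 8.70 in GSK-J5 and 10.72 in GSK-J4, a margin of 2.02 at rank 5. Chac1, an enzyme that degrades glutathione, read 9.11 in medium, 9.18 in DMSO, 9.44 in GSK-J5 and 10.54 in GSK-J4, a margin of 1.1 at rank 49. In Trib3 and Chac1 GSK-J5 was the highest control, and GSK-J4 was still 4.06-fold and 2.14-fold above it.

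GSK-J4 and GSK-J5, 1 pair of related compounds, were compared at the same dose and time. GSK-J4 exceeded GSK-J5 by 1.5-fold in all 9 genes, against 3.28% of the 13308, and by 2-fold in 6, against 0.827%. The log2 difference ran from 0.63 for Atf4 to 2.91 for Niban1, with a median of 1.1 beside 0.00 over all genes. The corresponding medians were 1.36 against DMSO and 1.43 against medium. The difference of Atf4 was 0.56 after a further quantile normalization and 0.58 after loess, both under the rule, so Atf4 sat at the threshold.

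The control compound gave a smaller and uneven pattern. GSK-J5 was at least 1.2-fold (0.263) above the higher of DMSO and medium in 1 of the 9, Ddit3, against 0.616% of the 13308 genes. Ddit3 lay 0.32 above medium and 0.70 above DMSO in GSK-J5. The controls differed too, as DMSO read 0.38 below medium for this gene. By the 1.2-fold rule Ddit3 was also the 1 member of 9 lower in DMSO than in both medium and GSK-J5, against 0.654% of genes. Chac1 was 0.26 above the nearer control and Trib3 0.24, which is 1.197-fold and 1.181-fold, so Chac1 missed the rule by less than the second decimal of the deposited values can resolve.

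At 1.1-fold (0.1375) 3 of the 9 were higher in GSK-J5, namely Ddit3, Chac1 and Trib3, against 4.70% of genes. Cebpb was above both controls by 0.10, so 4 of the 9 were above by any amount, against 29.7% of genes. The other members were not: Atf4, Atf5 and Cebpg lay 0.04, 0.01 and 0.04 below both controls, and Nupr1 and Niban1 lay between them. The count at 1.2-fold depended on its settings, being 2 after median centring, which brought in Chac1 at 0.27, and 3 with the DMSO array left out, where Chac1 was 0.33 and Trib3 0.30 above medium. The share of all genes past the rule was 0.601% after median centring, and without DMSO it was itself higher, at 3.088%. Niban1 and Nupr1, the pair with the largest margins in GSK-J4 among the 9, lay in GSK-J5 within 0.04 and 0.10 of both DMSO and medium.

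**Figure D2:**
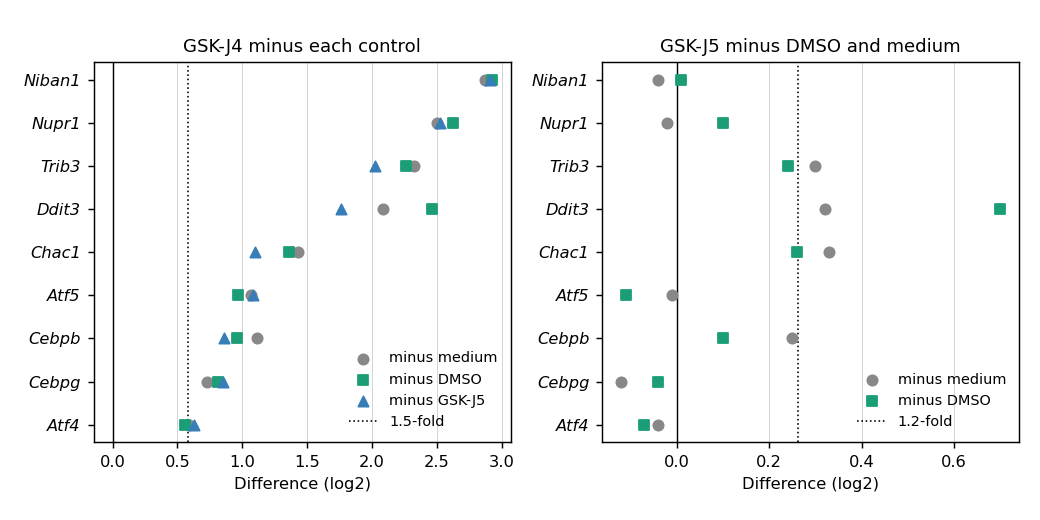
Log2 differences of GSK-J4 from each of the 3 controls (left, with 1.5-fold dotted) and of GSK-J5 from DMSO and medium (right, with 1.2-fold dotted), 1 point per pair of arrays; the axes have different scales. All GSK-J4 points lie to the right of 0, from 0.56 to 2.92, while the GSK-J5 points run from −0.12 for Cebpg to 0.70 for Ddit3.

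ATF4 dimers are known to bind a composite element with a C/EBP and an ATF part, so the promoters of the 9 genes were searched for the letters TGATGNAA and, on the other strand, TTNCATCA. The windows were RefSeq promoter sequences of the GRCm38.p6 build, from 250 bases before to 50 bases after each annotated start. All 9 genes had a window, and Chac1, Nupr1 and Trib3 held 1 match each. Among all 32851 windows 3.97% held a match, and among the 10442 other genes past the filter that had a window 2.67% did. A match is a description of letters and not a site, and the lack of one in the other 6 genes covers this window only. The stretches below show the matched letters in capitals; those of Atf3 and Jdp2, relatives of the circuit's factors described further on, are set beside them for comparison. Each is printed in the direction of its gene. The match starts 193 bases before the start site in Chac1, 110 before it in Nupr1 and Atf3, 33 before it in Jdp2 and at base 15 of the transcribed part in Trib3.
Chac1, chr2:119351019-119351086, plus strand: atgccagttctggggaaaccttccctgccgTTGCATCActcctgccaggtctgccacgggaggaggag
Nupr1, chr7:126625543-126625610, minus strand: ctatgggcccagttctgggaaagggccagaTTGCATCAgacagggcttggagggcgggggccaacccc
Trib3, chr2:152344036-152344076, minus strand: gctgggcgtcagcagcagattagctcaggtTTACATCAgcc
Atf3, chr1:191183406-191183473, minus strand: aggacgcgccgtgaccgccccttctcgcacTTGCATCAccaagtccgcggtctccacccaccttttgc
Jdp2, chr12:85599353-85599420, plus strand: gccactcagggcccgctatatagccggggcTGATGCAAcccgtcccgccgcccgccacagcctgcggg

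The same 8 letters, TTGCATCA, stood in Chac1, Nupr1 and Atf3, and 1 of the 3 windows of Jdp2 held them on the other strand. Of the other genes higher in GSK-J4 by the 1.5-fold rule, 227 had a window and 19 of these (8.37%) held a match. Niban1, with the largest margin of the circuit, and Ddit3 had no match in their windows.

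Relatives of the circuit's factors differed among themselves. Of 24 ATF, CREB and C/EBP family genes listed beside the circuit, 23 were measured and 20 passed the filter. By the 1.5-fold rule 4 of the 20 were higher in GSK-J4 and 0 lower, against 2.21% and 0.842% of the 13308 genes. Their median difference between GSK-J4 and GSK-J5 was 0.03, over all 23. Jdp2, a repressor that binds Jun proteins, read 7.26 in medium, 7.13 in DMSO, 7.49 in GSK-J5 and 8.95 in GSK-J4, a margin of 1.46. Atf3, a stress-induced repressor activated by ATF4, read 7.67 in medium, 7.47 in DMSO, 7.52 in GSK-J5 and 9.0 in GSK-J4, a margin of 1.33. Only GSK-J4 was high in both genes, though Jdp2 in GSK-J5 lay 0.23 above medium. Creb3l1, a factor anchored in the endoplasmic reticulum, had a margin of 0.95 and Creb5 one of 0.70. Of these 4 genes 3 had a promoter window, and counted by gene all 3, Jdp2, Atf3 and Creb5, held the composite letters. Among the other family members 0 of 13 with a window did, and among all genes past the filter outside the circuit 2.67%. Jdp2 held the letters in only 1 of its windows, and the count by gene makes no allowance for genes with several windows.

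Further C/EBP genes read near the filter level. Cebpa, Cebpd and Cebpe read between 6.19 and 6.67 on the 4 arrays, around the filter level, with differences of −0.31, −0.04 and −0.14 between GSK-J4 and GSK-J5. Xbp1, the factor of another branch of the unfolded protein response, read 11.80 in medium, 11.71 in DMSO, 11.79 in GSK-J5 and 11.70 in GSK-J4. Atf6, whose targets are listed with those of XBP1 below, read 9.68 in medium, 9.67 in DMSO, 9.67 in GSK-J5 and 10.24 in GSK-J4. Its margin of 0.56 fell just short of the rule, as that of Atf4 did.

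Of 6 further paralogues of the downstream genes 5 were measured, and by the 1.5-fold rule 0 were higher and 0 lower, beside 2.21% and 0.842% of the 13308 genes. Trib1 and Trib2, pseudokinases that direct C/EBP proteins to degradation, went the other way from Trib3. Trib1 read 8.73 in medium, 8.53 in DMSO, 8.67 in GSK-J5 and 7.98 in GSK-J4, and Trib2 8.04, 7.91, 7.95 and 7.34 on the same arrays. GSK-J4 was the lowest array for both, with margins of −0.55 and −0.57, just short of the rule, and both were past it after a further quantile normalization, after loess or without the DMSO array. Niban2, Chac2 and Nupr1l differed between GSK-J4 and GSK-J5 by 0.11, 0.22 and 0.05, while Niban1, Chac1 and Nupr1 differed by 2.91, 1.1 and 2.52.

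**Figure D3:**
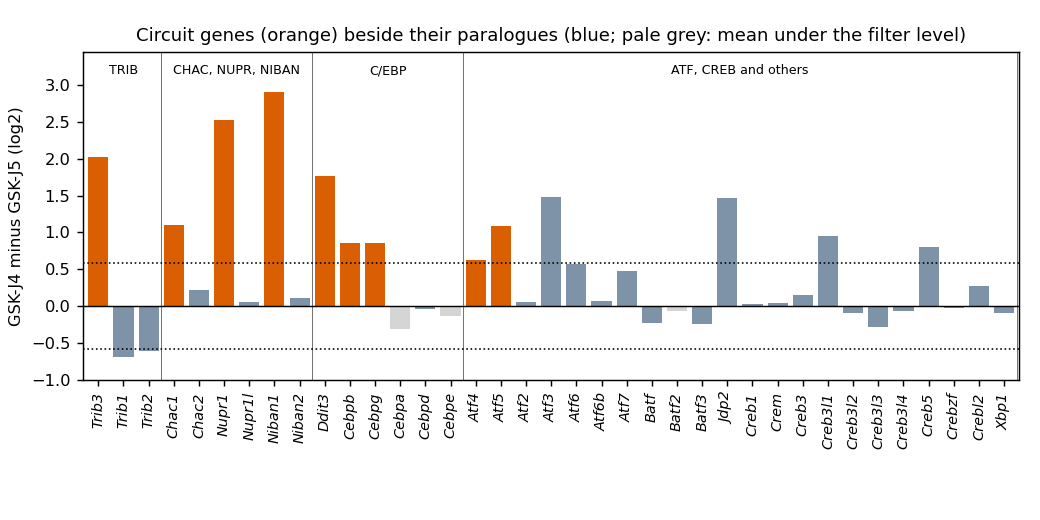
GSK-J4 minus GSK-J5 (log2) for the 9 circuit genes (orange) and for their relatives (blue, or pale grey where the mean lies under the filter level), with 1.5-fold in either direction dotted. Trib3 stands at 2.02 beside Trib1 at −0.69 and Trib2 at −0.61, and among the ATF and CREB genes Atf3 (1.48) and Jdp2 (1.46) exceed Atf4 (0.63).

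Genes that ATF4 is known to activate were higher in GSK-J4 in part. Of 49 listed, 45 were measured and 43 passed the filter. Of these 43, 15 were higher and 0 lower, against 2.21% and 0.842% of the 13308 genes, with margins from 0.61 to 2.02. In 41 of the 45, genes under the filter level included, GSK-J4 was the highest array, against 38.0% of the 13308 genes past the filter. The list's median difference from GSK-J5, over the same 45, was 0.42, beside 0.00 over all genes past the filter. Among those past the filter the largest margins belonged to Inhbe, a subunit of activin E (2.02), Ddit4, an inhibitor of mTORC1 (1.84), Aldh1l2, a mitochondrial folate enzyme (1.59), Vldlr, a lipoprotein receptor (1.30), and Stc2, a secreted glycoprotein (1.22). Inhbe lay under the filter level on all 3 control arrays, Vldlr in medium and DMSO, and Aldh1l2 in DMSO, so the sizes of these 3 margins are not exact. Inhbe and Vldlr passed the filter only through their GSK-J4 values of 8.30 and 8.09, so their places in the count rest on that array. Of the 15, 12 lay above the filter level on all controls. Slc7a11, a cystine transporter gene with a margin of 1.78, was under the filter level on average and was not counted; without the filter the count was 16. Of the 35 genes with a promoter window 12 held the composite letters, beside 2.67% of genes past the filter outside the circuit. They were 4 of 11 among those counted as higher and 8 of 24 among the rest. The 4 include Inhbe and Vldlr, which passed the filter only through GSK-J4. Slc7a11 also held the letters and stood among the rest because it was under the filter level. The split therefore rests in part on the filter.

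In GSK-J5, 5 of the 43 ATF4 target genes were at least 1.2-fold above DMSO and medium and 0 below, beside the 0.616% given above. These were Vldlr (0.38), Stc2 (0.33), Pck2, the mitochondrial PEP carboxykinase (0.32), Gpt2, an alanine aminotransferase (0.27), and Vegfa, the vascular growth factor (0.27). Vldlr read 6.41 in medium and 6.33 in DMSO, both under the filter level, so the size of its difference is not exact. It entered the count only through its GSK-J4 value of 8.09, which raised its mean past the filter. Over all measured genes of the list the median difference was 0.14 from DMSO and 0.08 from medium, beside 0.01 and −0.01 over all genes past the filter.

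Of 8 genes known as CHOP targets 7 passed the filter, 3 were higher in GSK-J4 and 0 lower, against 2.21% and 0.842% of the 13308 genes. Bbc3, which encodes the cell death protein PUMA, had a margin of 1.03, Ppp1r15a, the stress-induced subunit of the eIF2 phosphatase, 0.77, and Tnfrsf10b, a death receptor, 0.73. Bbc3 and Tnfrsf10b are also known targets of p53. Ero1a, an oxidase of the endoplasmic reticulum, Bcl2l11, which encodes BIM, and Dnajb9, a chaperone cofactor, had margins of 0.37, 0.03 and −0.07. Bcl2, an inhibitor of apoptosis that CHOP is known to repress, lay between its controls in GSK-J4, and in GSK-J5 was 0.31 above medium and 0.51 above DMSO.

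Upstream and in the neighbouring branches fewer genes were past the rule, beside 2.21% of the 13308 genes higher and 0.842% lower. Of 6 measured genes of eIF2 kinases and eIF2 phosphatase subunits, Ppp1r15a was the 1 that was higher, with 0 lower. Among 20 measured chaperone and degradation genes known as targets of XBP1 and ATF6, 1 was higher, Herpud1, a protein of endoplasmic reticulum degradation (margin 0.69), and 0 were lower, with 12 of the 20 below all controls by any amount, against 35.5% of the 13308 genes, and a median difference of −0.06 between GSK-J4 and GSK-J5. Herpud1 was the 1 gene of this list whose promoter window held the composite letters.

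**Figure D4:**
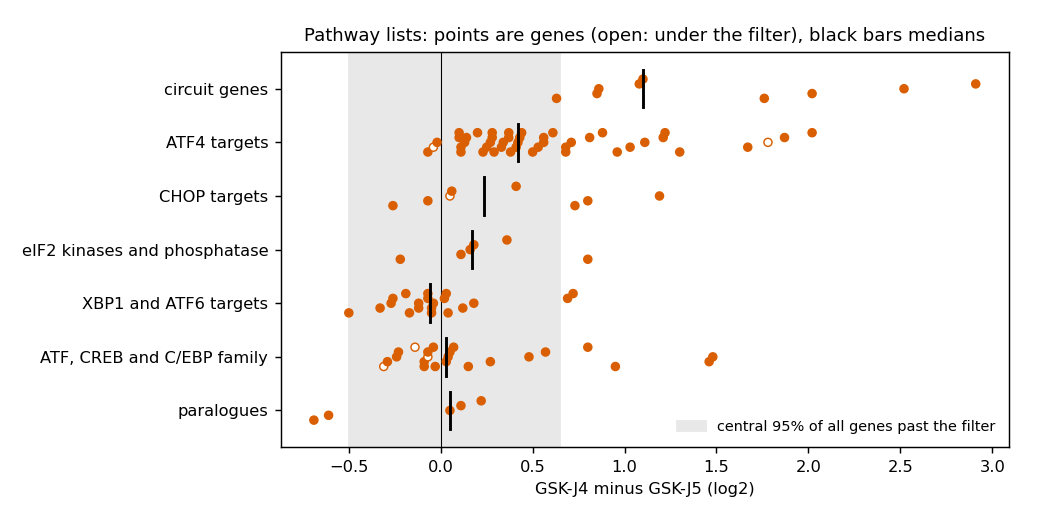
GSK-J4 minus GSK-J5 (log2) for each gene of the circuit and of the 6 lists around it; open points lie under the filter level, black bars are medians, and the grey band spans the central 95% of all genes past the filter, −0.50 to 0.65. The median is 1.1 for the circuit, 0.42 for ATF4 targets and −0.06 for targets of XBP1 and ATF6.

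Genes outside the circuit with the most similar profile over the 4 arrays were found by Euclidean distance to the median profile of the 9, each gene taken relative to its own mean of DMSO and medium. The median profile was −0.02 in medium, 0.02 in DMSO, 0.04 in GSK-J5 and 1.40 in GSK-J4. The nearest 8 were Acot2, an acyl-CoA thioesterase, Eng, the TGF-beta co-receptor endoglin, the zinc finger gene Zfp750, Ephx1, an epoxide hydrolase, the potassium channel gene Kcnt2, Arhgef2, Adm2, a peptide hormone, and Mmrn2, an extracellular matrix protein. Their distances ran from 0.11 to 0.19. The circuit's own genes, taken by name, lay from 0.26 (Chac1) to 1.5 (Niban1) from their median. The 8 were picked for the smallest distances, so their being nearer was fixed by that choice. With 4 arrays, of which 1 is high, the measure mostly compares the size of the GSK-J4 difference.

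**Figure D5:**
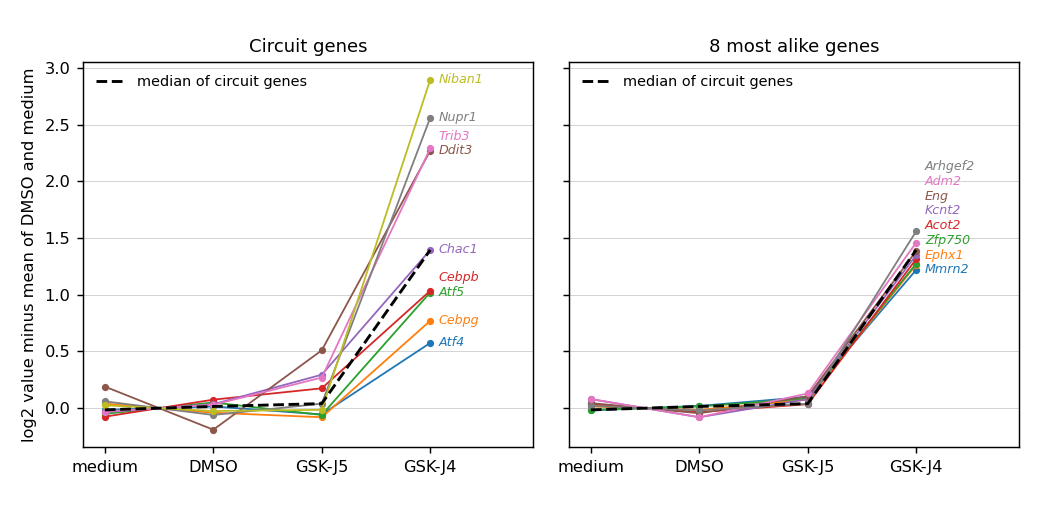
Log2 value minus the mean of DMSO and medium on each of the 4 arrays for the circuit's genes (left) and the 8 most alike genes (right), with the circuit's median dashed; lines join the arrays of a gene and show no order. In GSK-J4 the circuit's genes fan out from 0.58 for Atf4 to 2.90 for Niban1, and in GSK-J5 Ddit3 stands highest at 0.51.

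Of 14 markers of embryonic stem cells and early embryoid bodies 13 passed the filter. By the 1.5-fold rule Fgf5, Pou3f1 and Dnmt3b were lower in GSK-J4, against 0.842% of the 13308 genes. The 15 measured markers of feeder fibroblasts had a mean level of 6.43 in medium, 6.45 in DMSO, 6.45 in GSK-J5 and 6.24 in GSK-J4. Of these, 7 passed the filter and 0 were higher or lower by the rule. By any amount 11 of the 15, markers under the filter level included, were below all controls, against 35.5% of the 13308 genes. Markers of primitive endoderm had 0 of 5 past the rule. Of 4 measured blood markers only Laptm5 passed the filter, and it was higher in GSK-J4 (8.45 against 6.92 to 7.16). The part of these differences in the circuit's values was not tested, and in whole embryoid bodies more cells with a transcript and more transcript per cell cannot be told apart.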

How the data were processed

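The values are the authors' deposited log2 expression values. Per the submitters' processing notes they come from RMA, run in Expression Console 1.2.1.20. This method subtracts background, gives the arrays a common distribution and yields 1 value per probe set. Base 2 was inferred from the range, 2.20 to 14.48. Array medians were 6.63 to 6.65. Scanner files were not used here, so detection was not examined; precision is limited by the number of arrays.

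Names came from the platform annotation, and only probe sets with 1 symbol (23521 of 41345) were kept. The brightest per gene was taken. The filter is the 40th percentile of gene means. Values carry 2 decimals. Rules of size replaced tests. The margin rule was run on simulated arrays with independent noise of one size and 2-fold shifts put in. That simulation holds no variation between cultures, so it cannot show how the rule performs with 1 array a group. Named are all 9 genes, up to 5 per direction from each list by margin or, where none passed, the 2 farthest from GSK-J5, and the 8 most alike genes. Other genes were chosen after their values were seen. The 9 genes, the lists and the rules were chosen with earlier results of these data known. Alternatives covered scaling, probe sets, folds, filters and each control array. Python 3.11.15, pandas 2.3.3 and statsmodels 0.14.6 were used.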

Additional observations from a re-analysis of the deposited data

How the results depend on the processing

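The count of circuit genes above all 3 controls was 8 under all 3 rescalings and with no filter, 8 to 9 when a control array was left out, 9 at 1.2-fold (9.731% of all genes), 7 with the filter at the 60th percentile (2.152%), which removes Cebpb, and 5 at 2-fold (0.571%). Leaving out a control can only keep or widen the margin of a gene already above all controls, so the count of 8 could not fall. The same holds for the GSK-J5 count that follows, with medium or DMSO left out. The share of all genes higher in GSK-J4 rose from 2.209% to between 2.405% and 2.562% when a control was left out. The count for GSK-J5 was 1 as reported, 2 after median centring, 1 to 3 with medium or DMSO left out, 3 at 1.1-fold and 0 at 1.5-fold; the share of all genes was 0.616% as reported, 2.713% without medium and 3.088% without DMSO. At 2-fold the counts higher in GSK-J4 were 2 for the ATF, CREB and C/EBP family, 8 for ATF4 targets, 1 for CHOP targets, 0 for eIF2 kinases and phosphatase and 0 for XBP1 and ATF6 targets. The family count was 1 with the filter at the 60th percentile. Leaving out a control array gave 1 to 2 for XBP1 and ATF6 targets, and without GSK-J5 1 of these was lower. For single genes, 120 of the values recomputed stayed on the same side of the rule, 4 passed it and 2 no longer did. None changed sign past the rule, while the direction of values short of it was not compared. The 6 concern Atf4, Chac1 and Trib3. Leaving out a control array could bring a value of these genes past the rule but not under it. For those recomputed values, staying past the rule was fixed in advance. Each circuit gene had 1 probe set and none was listed with other symbols, so the alternatives on probe sets could not change its values and are not counted here.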
